A study of Mus musculus with 205 samples.

Results

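The 26 editor pairs numbered 53 to 78 are the recombined pairs of a screen of mitochondrial base editors in mouse cells. They were taken by the pair ID in the sample label, 2 pairs for each of the 13 protein-coding genes of mouse mtDNA, from 52 screened pairs and 205 samples in the series. The other 26 screened pairs carry IDs of 52 or lower and use the same binding arms in other combinations. NIH/3T3, a mouse embryonic fibroblast line with unmodified mtDNA, received 3200 ng of each of 2 plasmids, which encode the L and the H monomer. Cells positive for both plasmid markers were sorted after 24 h and their mtDNA was sequenced 7 d after transfection. Each pair was a single sample. Controls were 2 empty-vector samples of the same line, 1 in sequencing run MS1 and 1 in run MS2. Members 60, 61, 64, 66 and 69 were also tested at 14 d, with 3 technical repeats each beside 3 of the empty vector, again by transient expression from 2 plasmids.

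A DddA-derived cytosine base editor (DdCBE) consists of 2 TALE proteins that bind opposite strands on either side of a target base. Each TALE carries an inactive part of the bacterial deaminase DddA, and the parts join into an active enzyme on double-stranded DNA between the binding sites. The enzyme turns a C into a U, which is then copied as T, so a C:G pair becomes T:A. In vertebrate mitochondria TGA encodes Trp, and a change of the C opposite its G gives the stop codon TAA. The genes encode membrane subunits of respiratory complexes I, III and IV and of ATP synthase. Cells hold many copies of mtDNA, so editing is a share of copies, or heteroplasmy.

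For each gene, 2 TALEs had been designed on the L strand (L1 and L2) and 2 on the H strand (H1 and H2). Pairs with lower numbers joined arms of the same number, L1 with H1 or L2 with H2. Members joined arms of unlike number, L2 with H1 or L1 with H2. Of the 13 odd-numbered members, 11 were L2-H1, and only in Nd4l and Nd6 were the odd members L1-H2. The C-terminal part of the split DddA sat on the L arm in 11 genes and on the H arm in Nd4l and Nd6.

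The study's drawing of the binding sites places L2 and H1 nearer the target base in 11 genes. In Nd6 and CoIII it places L1 and H2 nearer. The members of each gene are therefore its extreme combinations, and they are called narrow where both arms are the inner ones and wide where both are the outer ones. Narrow members were 53, 55, 57, 59, 62, 63, 65, 67, 69, 71, 74, 75 and 77. The distance in bases was not used, and pairs of ID 52 or lower have 1 inner and 1 outer arm.

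The targets of 6 genes are shown because they hold the largest and the opposite differences or the unusual arm layouts. Each line gives 29 bases of the reference L strand from RefSeq (GRCm38), 5′ to 3′, with the edited position in capitals. In Nd2, Nd3, Nd5 and CoIII the capital G lies opposite the edited C, and in Nd4l and Nd6 the capital is the edited C itself.
CoIII, chrM:9029-9057: tgtttcaattacatGagctcatcatagcc
Nd3, chrM:9512-9540: tctagttgcattctGactcccccaaataa
Nd2, chrM:3988-4016: cctaatactaatatGagtaggcctggaat
Nd5, chrM:11930-11958: tacaacctggcactGagtcaccataaatt
Nd6, chrM:13800-13828: aacccaaaattaatCagttagatccccaa
Nd4l, chrM:10133-10161: gaacagattacgtcCaaaatctcaaccta
All lie in protein-coding sequence. The substitutions are G9043A in codon 146 of CoIII, G9526A in codon 23 of Nd3, G4002A in codon 30 of Nd2 and G11944A in codon 68 of Nd5. In Nd6, which is read from the other strand, C13814T changes codon 86. These 5 codons read TGA, as do 12 of the 13 targets, and T precedes the edited C in the same 12 genes. That TC context, searched on both strands, holds for 29.2% of the 5989 C:G pairs of mtDNA. In Nd4l, C10147T turns the Gln codon CAA at codon 91 into TAA, and the edited C follows another C.

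On-target editing of the 26 members ran from 35.3% (pair 65, Nd6) to 93.6% (pair 70, CoI), with a median of 74.5% and a mean of 68.4% ± 17.9 (SD over pairs). It exceeded 50% in 20 members and 80% in 8. The wide member was higher than the narrow member of the same gene in 12 of 13 genes. Wide members averaged 75.8% and narrow members 61.0%, a difference of 14.8 percentage points (SD over genes 16.4, n = 13). An exact two-sided sign-flip permutation test over genes gave p = 0.0078, adjusted p = 0.033 over the 10 contrasts of the screen, with a 95% interval from 4.74 to 24.5 points. The classes were set from the drawing with earlier results of these data known, so this p-value is not that of a split fixed beforehand. Split by arm name instead, the same test gave 7.23 points and p = 0.24. The depth at the target base is unknown, so no counting interval is given for a single value, and the test measures spread between genes.

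Among the genes of complex I, the NADH dehydrogenase of the respiratory chain, the widest gap was in Nd3, a small membrane subunit. Its narrow pair 57 gave 37.5% on target and its wide pair 58 gave 79.6%, a gap of 42.1 points. Both were read in run MS2 at a mean coverage of 421 and 363, and they are the lowest and the highest of the gene's 4 pairs.

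Nd2, a proton-pumping membrane subunit, had the same order. Pair 55 (narrow) gave 45.4% and pair 56 (wide) gave 79.8%, both in run MS3 at coverages of 13350 and 5710. These too were the lowest and the highest of the gene's 4 pairs.

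In Nd1, which lies where the membrane arm meets the peripheral arm, pair 53 (narrow) gave 69.3% and pair 54 (wide) gave 86.1%. In Nd4, another pumping subunit, pair 59 (narrow) gave 35.4% and pair 60 (wide) gave 58.3%. For both genes the wide member was read in run MS3 and the narrow one in MS2, so run and arm spacing cannot be told apart there. Pair 59 also had the lowest coverage of any member, 108.

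Nd6, a membrane subunit of complex I, is the only one of these genes read from the other strand, and it has the reversed arm layout. Pair 65 (narrow) gave 35.3% and pair 66 (wide) gave 48.9%, the lowest value of any wide member. Within Nd6 the wide pair was still 13.6 points above the narrow pair.

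Nd4l has 2 on-target columns, the second for a neighbouring base, and the headers do not say which base each holds. Pair 61 (wide) gave 78.0% and 74.4% in the 2 columns. Pair 62 (narrow) gave 70.7% and 66.7%. The wide pair was higher in each column, and in each pair the second column was lower, by 3.55 points in pair 61 and 4.04 in pair 62.

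Nd5, the largest membrane subunit of complex I, went the other way. Pair 63 (narrow) gave 79.2%, the highest of the gene's 4 pairs, and pair 64 (wide) gave 58.2%. Both came from run MS3 at high coverage, 11637 and 18082. Nd5 was thus the only gene in which the inner arms gave the higher share, with a wide minus narrow difference of -21.0 points.

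For complex IV, cytochrome c oxidase, the largest gap was in CoIII, a membrane subunit of its core. Pair 74 (narrow) gave 45.3% and pair 73 (wide) gave 80.8% in run MS2. CoIII also has the reversed arm layout, so here the odd-numbered member was the wide one. In CoI, the catalytic subunit with the heme and copper centre, pair 69 (narrow) gave 81.2% and pair 70 (wide) 93.6%. In CoII, the subunit that accepts electrons from cytochrome c, pair 71 gave 58.9% and pair 72 gave 65.2%. The wide member led in all 3 genes.

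The remaining genes had high values in both members and small gaps. In Cytb, the core subunit of complex III, pair 67 (narrow) gave 74.5% and pair 68 (wide) 84.4%. In Atp6, part of the proton channel of ATP synthase, pair 75 gave 85.9% and pair 76 gave 92.5%. In Atp8, a small subunit of its stator, pair 77 gave 74.5% and pair 78 gave 80.2%. The wide member exceeded the narrow one by between 5.63 and 42.1 points over the 12 genes, and by more than 10 points in 7 of them.

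Among the 4 pairs of a gene, the wide member had rank 1 (the highest) in 6 genes, rank 2 in 6 and rank 3 in 1, and was never the lowest. The narrow member was the lowest in 8 genes, had rank 3 in 4 and was the highest only in Nd5. Pairs with only the L arm outward or only the H arm outward took all other places, each highest in 3 genes. Across the 13 genes, the on-target values of the narrow and the wide member had a Pearson r of 0.53 (Spearman rho 0.58). That is a description over genes: the 2 values of each point share their target, and in Nd1 and Nd4 they come from different runs.

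The gap between wide and narrow members was as large within the run that holds most of them. In the 8 genes with both members in run MS2, the wide member was higher in all 8, by 16.5 points on average (exact sign-flip permutation p = 0.0078, the smallest p that 8 genes allow, adjusted p = 0.033). In run MS3, which holds both members of Nd2, Nd4l and Nd5, it was higher in 2 of 3 genes. The call was lost in the 11 genes read in a single run per gene (mean 13.9 points, higher in 10, exact permutation p = 0.030, adjusted p = 0.10). It was also lost when Nd1, Nd2, Nd3, Nd4 or CoIII was left out, at adjusted p values of 0.0505 to 0.0521, while the mean stayed between 12.5 and 17.8 points over all genes left out in turn. By arm name rather than drawn place, L1-H2 minus L2-H1 was 7.23 points, higher in 10 of 13 genes (exact permutation p = 0.24).

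The contrast of wide with narrow is the sum of an L-arm and an H-arm step. All 52 pairs allow each step to be averaged over the other arm, but not apart from sequencing run. With the outer H arm, pairs averaged 73.6%, and with the inner H arm 61.1%. The difference was 12.4 points (SD 16.1, n = 13 genes), positive in 11 genes (exact sign-flip permutation p = 0.0059, adjusted p = 0.033). With run medians subtracted it was 11.4 points, positive in 9 genes (exact permutation p = 0.013, adjusted p = 0.042). These p-values carry the limit given for the wide and narrow classes, since the arm places define those classes. With the outer L arm pairs averaged 68.5% against 66.2% with the inner one, a difference of 2.39 points with an interval from -5.87 to 10.8 (adjusted p = 0.63, exact permutation), positive in 10 genes. With only same-run pairs, which 4 genes have, the L-arm step turned to -12.5 points, with 2 genes in each direction. Whether the steps of the arms differ was not tested.

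Taken over all runs, the mean H-arm step was positive beside each L arm. Wide members exceeded the gene's pair with only the L arm outward by 14.5 points on average, in 10 of 13 genes. Narrow members fell below the pair with only the H arm outward in 10 of 13 genes, with a mean gap of 10.3 points. Most of these comparisons cross sequencing runs. With only same-run pairs, 5 genes gave an H-arm step of 19.5 points (exact permutation p = 0.25), and 5 genes cannot give p below 0.0625. Beside the outer L arm the same-run step was 9.49 points in Cytb, 33.1 in CoII and 63.2 in CoIII. Beside the inner L arm only Nd4 and Nd4l share a run, and they went in opposite directions. Pair 59 (narrow) was 11.3 points above pair 34 in Nd4, and pair 62 (narrow) minus pair 10 was -3.08 points in Nd4l.

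Taken as a set against the same gene's pairs of ID 52 or lower, members showed no difference in on-target editing that passed the test. Members averaged 68.4% and the other pairs 66.3%, a difference of 2.13 points with an interval from -1.19 to 5.54 (exact sign-flip permutation p = 0.19, adjusted p = 0.39), higher in 8 of 13 genes. This contrast sets the 2 extreme spacings against the 2 mixed ones. The gene differences ran from -5.70 points in Nd6 to 12.9 in CoIII. A member was the highest of its gene in 7 of 13 genes: pairs 54, 56, 58, 63, 68, 70 and 76. Members are 2 of the 4 pairs of each gene, and a pair of ID 52 or lower was highest in the remaining genes. In Nd4l that was pair 9, with 84.6% in both on-target columns at a mean coverage of 92.6, the lowest of all 52 pairs.

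Sequencing runs differed between the sets. Of the pairs of ID 52 or lower, 16 were read in run MS1, which holds no member. After the median of each run was subtracted, members were 6.11 points above the other pairs, higher in 10 genes (exact permutation p = 0.0061, adjusted p = 0.025). This subtraction cannot tell run from set, because the MS1 median is that of lower-numbered pairs alone. In MS2 the median rests on 18 members beside 6 lower-numbered pairs with a mean of 47.9%. Only 5 genes have a member and a lower-numbered pair in the same run.

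In those 5 genes, each member can be set beside a pair read with it. In CoIII, pairs 73 and 74 gave 80.8% and 45.3% beside 17.6% for pair 48. In CoII, pairs 71 and 72 gave 58.9% and 65.2% beside 32.1% for pair 45. In Nd4, pair 59 gave 35.4% beside 24.1% for pair 34. Cytb and Nd4l had small gaps: pair 68 was 9.49 points above pair 41 and pair 61 was 4.17 above pair 10, while pair 67 minus pair 41 was -0.41 points and pair 62 minus pair 10 was -3.08. Over the 5 genes, the mean difference was 18.4 points, all positive after averaging within a gene (exact permutation p = 0.0625, the smallest 5 genes allow). Pairs 34, 45 and 48, beside which the gaps were large, were each the lowest of their gene's 4 pairs. The other lower-numbered pair of each of these genes, read in run MS1, was the highest. Pair 33 of Nd4 gave 58.4%, pair 46 of CoII 70.9% and pair 47 of CoIII 82.8%.

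Odd-numbered members averaged 64.3% on target and even-numbered members 72.5%, a difference that did not pass the test. The odd member was lower in 10 of 13 genes, with a mean difference of -8.22 points and an interval from -20.6 to 4.51 (exact sign-flip permutation p = 0.18, adjusted p = 0.39). The 3 genes in which the odd member was higher were Nd4l and CoIII, where the odd member is the wide one, and Nd5. In Nd6 the odd member was L1-H2, by drawn place the narrow one, and it was lower.

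Off-target editing is the mean C:G-to-T:A share over mtDNA away from the target, a measure of how freely an editor acts elsewhere. It ran from 0.182% (pair 65, Nd6) to 0.995% (pair 63, Nd5) in the members, with a median of 0.339%. The empty vector in run MS2 had 0.121%. All 18 members of that run were above it, from 1.50-fold in pair 65 to 4.93-fold in pair 53, with a median of 2.74-fold. This was not particular to members. All 6 pairs of ID 52 or lower in MS2 and all 16 in MS1 were also above the empty vector of their run. Run MS3 holds no empty vector, so no such ratio is given for its 8 members.

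As a plain percentage, members had more off-target editing than the same gene's pairs of ID 52 or lower. Their average was 0.382% against 0.273%, a difference of 0.108 points (SD over genes 0.131, n = 13), positive in 12 of 13 genes. The exact sign-flip permutation test gave p = 0.010 and adjusted p = 0.033, with an interval from 0.0303 to 0.187. A member had the highest off-target value in 12 of 13 genes, where members are 2 of the 4 pairs of each gene. The highest value among the other pairs was 0.404%, and 8 members lay above it. Both counts cross sequencing runs: 16 of the other pairs were read in run MS1, which holds no member and has the lower empty-vector value.

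The empty vectors of runs MS1 and MS2 had 0.0616% and 0.121%, so background moved with the run in the direction of this difference. As folds over the run's own empty vector, the order of the sets depended on the run. The 16 pairs of ID 52 or lower in MS1 ran from 2.31-fold to 6.47-fold, and the 6 in MS2 from 1.63-fold to 2.60-fold. The 18 members in MS2 ran from 1.50-fold to 4.93-fold. The sets were not tested as folds. As on target, the MS1 median comes from pairs of ID 52 or lower alone, so subtracting run medians cannot tell run from set. With run medians subtracted the off-target difference was 0.0895 points (11 of 13 genes, exact permutation p = 0.0068, adjusted p = 0.026). In the 5 genes with same-run pairs it was 0.102 points (4 of 5 genes, exact permutation p = 0.19, where 0.0625 is the smallest possible). The call was lost when Nd1, Nd2, Nd3, Nd4, Nd5, CoI, CoII, CoIII or Atp6 was left out, with adjusted p up to 0.067, and the mean stayed between 0.0849 and 0.131 points.

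The largest excess was in Nd5, where pair 63 had 0.995% and pair 64 had 0.329%, against 0.301% for pair 37 and 0.248% for pair 38. In Nd1 both members were high, 0.599% in pair 53 and 0.653% in pair 54. Nd6 alone went the other way, with 0.182% in pair 65 and 0.269% in pair 66 beside 0.374% in pair 13 and 0.404% in pair 14. In Nd6 the lower-numbered pairs were read in run MS3 and the members in MS2.

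Off-target editing did not follow arm spacing in the way on-target editing did. The wide member was higher in 8 of 13 genes and the mean difference was -0.0449 points, with an interval from -0.196 to 0.0971 (adjusted p = 0.63, exact permutation). The sign of that mean rested on Nd5: without it the difference was 0.0068. The spread among narrow members was wide, with 7 of 26 members above 0.5%, of which 5 were narrow.

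Genes fell into different patterns. In CoI, the wide pair 70 had 0.506% off target and the narrow pair 69 had 0.261%. In CoII the order was reversed, with 0.211% in the wide pair 72 and 0.518% in the narrow pair 71. In 4 genes, Nd4, Cytb, CoII and Atp6, the wide member had both more on-target and less off-target editing than the narrow one. For Cytb that off-target difference was slight, 0.235% in pair 68 against 0.240% in pair 67. In Atp6 pair 76 had 0.318% and pair 75 had 0.521%, and in Nd4 pair 60 had 0.356% and pair 59 had 0.573%. The Nd4 members were read in different runs, and pair 59 had a mean coverage of 108, so run, depth and arm spacing cannot be told apart there.

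In the other 8 genes with a higher wide member, its off-target value was higher too. The wide member had 0.355% against 0.229% in Nd3 and 0.342% against 0.254% in Nd2. It had 0.337% against 0.228% in Nd4l and 0.349% against 0.254% in Atp8. In CoIII the values were close, 0.409% in pair 73 and 0.396% in pair 74.

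Across the 26 members, on-target and off-target shares had a Pearson r of 0.23 (Spearman rho 0.27). Within run MS2 r was 0.094 over 18 pairs, and within MS3 it was 0.53 over 8 pairs. The points share their libraries for both readouts, 2 share each target, and this is a description. Off-target editing per 100 points of on-target editing ran from 0.279 in pair 68 to 1.62 in pair 59, with pair 63 at 1.26. These last pairs differed in coverage, 108 for pair 59 and 11637 for pair 63.

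The authors' off-target score weighs single off-target sites, adding sites above 5% to a heavier sum of those above 20% and dividing by the square of on-target editing. The deposited column is headed Quality Score and is taken here to be this score. Whether its shares enter as percent or as fractions is not given in the sources used here. It is therefore read only as an order, and it shares its reads with the other readouts. Scores ran from 2.69 in pair 55 to 425 in pair 63. The next highest were 372 in pair 59, 346 in pair 74 and 199 in pair 71. Of the 8 members above 100, 6 were narrow. All 7 members with off-target editing above 0.5% were among those 8, and the other was pair 74 of CoIII. Scores under 10 were given to 6 members, namely pairs 55, 60, 64, 65, 69 and 78, of which 3 were narrow. Within genes the wide member had the lower score in 8 of 13. Dividing by the square of on-target editing raises the score where on-target editing is low. The counts of narrow and wide members are thus not separate from the on-target result.

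The off-target difference between odd and even members did not pass the test either. The averages were 0.413% and 0.350%, and the odd member was higher in 7 of 13 genes (difference 0.0636 points, interval from -0.0714 to 0.209, adjusted p = 0.63, exact permutation).

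At 14 d the 5 members carried forward were read at much greater depth. They had been taken on after the screen, so their levels are a description. The study's legends call the 3 repeats technical, so each pair is 1 sample and each SD below covers technical spread only. Times, coverage and runs differ from the screen, and no comparison is made. Pair 69 of CoI, the lowest of its gene's 4 pairs on target in the screen, had 71.7%, 71.7% and 71.9% on target, a mean of 71.8% ± 0.14 (SD, 3 technical repeats). Its off-target share was 0.165% ± 0.0044 (SD, 3 technical repeats). It was the highest of the 5 in both readouts.

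The 4 complex I members lay lower than pair 69 in every repeat. Pair 61 of Nd4l had 51.0%, 50.2% and 51.1%, a mean of 50.7% ± 0.50 (SD, 3 technical repeats), and off-target editing of 0.0787% ± 0.0020. Pair 64 of Nd5 had 48.5%, 50.1% and 48.9%, a mean of 49.2% ± 0.84 (SD, 3 technical repeats), and 0.0864% ± 0.0011 off target. Pair 60 of Nd4 had 49.0%, 49.9% and 47.0%, a mean of 48.6% ± 1.49 (SD, 3 technical repeats). The technical repeats of pairs 60 and 64 overlapped, and no order is read between pairs 60, 61 and 64.

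Repeat 3 of pair 60 had a coverage of 2561 against 69483 and 67777 in the others. Its off-target share was 0.0943% against 0.119% and 0.120%, and the mean was 0.111% ± 0.015 (SD, 3 technical repeats). For Nd6 the 14-d labels name pair 66, the wide member, while the study's drawing of the screen marks pair 65, the narrow one, as the lead, so which member the value belongs to rests on the labels. The library labelled pair 66 was lowest on target, with 38.1%, 38.5% and 38.2%, a mean of 38.3% ± 0.22 (SD, 3 technical repeats), and 0.0828% ± 0.0021 off target. The 14-d empty vector had 0.0238% ± 2.8e-04 off target (SD, 3 technical repeats). All repeats of all 5 members were above it, from 3.30-fold in pair 61 to 6.91-fold in pair 69 by their means. No member has a biological replicate in these data.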

How the data were processed

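The authors amplified the whole mtDNA as 2 overlapping long amplicons, tagmented and sequenced them, trimmed reads with Trim Galore, aligned them to GRCm38 with Bowtie2 and made count tables with SAMtools and VarScan. The deposited tables give, per sample, on-target and off-target editing in percent, coverage as a mean read depth, and an off-target score. Coverage of members was 108 to 18082 in the screen. Of 9 deposited tables, 7 hold no member and were not used.

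Per-gene differences were tested by an exact two-sided sign-flip permutation test over 13 genes (8192 sign patterns), adjusted by Benjamini-Hochberg over 10 contrasts at 0.05. Intervals (95%) hold all shifts this test does not refuse. p-values measure spread between genes, since each pair is 1 sample. Repeats at 14 d are technical. Arm positions were read from the study's drawings. Target codons were located in the reference mtDNA. Members, classes and lists were chosen with earlier results of these data known. All 26 pairs are named. Alternatives covered summary, scale, run, coverage, gene and replicate choices. The test was checked on simulated data. Python 3.11.15, NumPy 2.4.6 and SciPy 1.17.1 were used.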

Additional observations from a re-analysis of the deposited data

Results flagged for a closer look

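In the contrast of wide with narrow members on target, Nd5 lay at -21.0 points while the 12 other genes were positive. In the contrast of members with pairs of ID 52 or lower off target, Nd6 lay at -0.164 points while the 12 other genes were positive. Whether either gene differs from the rest was not tested, since each value comes from single samples.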

How the results depend on the processing

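The on-target difference of wide and narrow members stayed positive in every alternative run, and lost its call in several. It was 12.4 points as a median over genes, 13.9 in same-run genes, 14.1 and 12.4 with coverage of at least 300 and 500, 7.23 by arm name, 6.86 in run MS3 and 15.6 in the genes with the C-terminal part on the L arm. With each gene left out in turn it was 12.5 to 17.8 points. The off-target difference of these members turned positive as a median (0.0540), in run MS2 (0.00615) and without Nd5, with a range of -0.0691 to 0.00684 over the genes left out.

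Members against pairs of ID 52 or lower passed the test on target only with run medians subtracted (6.11 points). In that setting run and set cannot be told apart, since run MS1 holds no member. Off target the difference stayed positive and lost its call as a median (0.104), in same-run genes (0.102), with coverage of at least 300 (0.0841) and 500 (0.0940) and when some genes were left out (0.0849 to 0.131). The outer minus inner H-arm step on target lost its call as a median (6.83), in same-run genes (19.5) and with coverage of at least 500 (17.7). The L-arm step on target was -12.5 points in same-run genes.

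The arm steps off target, negative and not called, turned sign. The L-arm step was 0.0193 as a median, 0.00171 on the log2 scale, 0.0137 and 0.00587 with coverage of at least 300 and 500, and -0.0241 to 0.00913 with genes left out. The H-arm step was 0.0283 as a median and 0.00533 with coverage of at least 300. The causes of these changes were not tested, beyond fewer genes entering the same-run, single-run, coverage and left-out settings. No paired analysis was possible because replicate numbers pair no samples here: each screening pair is a single sample, its tests are paired by gene, and the technical repeats at 14 d enter no test. The odd and even contrast kept its direction and its side of the threshold in every alternative. Coverage at the target base is unknown, and 1 member, pair 59, had a mean coverage under 300.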
